A study of Mus musculus with 8 samples.

Results

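Cadherins, protocadherins and catenins, the molecules of calcium-dependent adhesion between cells, were followed in mouse palate cells stimulated with ephrin-B1. The members were all genes whose symbol in the array's annotation named a numbered cadherin (Cdh), a protocadherin (Pcdh), an alpha, beta or delta catenin (Ctnna, Ctnnb1, Ctnnd), or a large cadherin of the Celsr, Dachsous (Dchs) or Fat families. This gave 92 genes with 157 probes, of 17711 genes and 46632 probes in all. The cells were MEP cells, primary cultures from the palatal shelves of E13.5 embryos of strain CBA;C57BL6 N2, measured at passage 1 with Illumina bead arrays. The induced group (4 arrays) received pre-clustered ephrin-B1-Fc at 2 ug/ml for 60 min. The uninduced group (4 arrays) is labelled as a control without induction. All 8 arrays therefore held cultured, passaged cells, and the labels name no transgene or deletion in them. Fat1, Fat2, Dchs1, Dchs2 and Ctnnd2 were not analysed here. The labels do not say how many embryos were pooled, whether replicates were separate cultures, or whether the Fc clustering reagent alone was given to the uninduced cells.

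Cadherins are membrane proteins whose extracellular repeats bind cadherins on the neighbouring cell in the presence of calcium. Their cytoplasmic tails bind beta-catenin and p120-catenin, and alpha-catenin links that complex to actin. The palatal shelf is a mesenchymal core under a thin epithelium, and E-cadherin (Cdh1) marks the epithelium, whereas N-cadherin (Cdh2) and cadherin-11 (Cdh11) are typical of mesenchyme. Eph receptors and their ephrin ligands are known to sort cells into separate groups, and cadherin adhesion takes part in that sorting. The comparison of induced with uninduced cells addresses early transcription after ephrin-B1 binds its Eph receptors, here for the adhesion genes.

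Between 15303 and 17362 of the 46632 probes were above background on each array (32.8% to 37.2%), and for the probes of the members this number was 33 to 45 of 157. A probe was counted as above background where its deposited detection p was under 0.05. Slides were read from the number that array codes in the sample descriptions shared. Each slide carried induced and uninduced arrays, with replicate 1 on slide 1, 2 on slide 2, and both 3 and 4 on slide 3. On slides 1 and 2 the code ended in E for the induced array and in D for the uninduced array. Treatment and that letter cannot be told apart there. The number of arrays limits the precision. Where arrays were paired by replicate number, the p-values for induced against uninduced cells rest in part on how the differences within pairs vary. They also rest on genes of similar intensity, because limma moderates the variance of each gene toward theirs. The spread between replicate numbers is taken out of these p-values. All 9 markers of palatal mesenchyme examined, among them Osr2, Prrx1, Msx1 and Pdgfra, were above background on all 8 arrays. Of 11 epithelial markers, 3 were above background on at least 4 arrays, the keratins Krt14, Krt8 and Krt18, the last 2 on all 8. Cldn4 was above it on 3 arrays. Epcam, Krt5, Krt15, Krt19, Trp63, Esrp1 and Grhl2 were above background on no array. Of 8 endothelial markers, 4 were above background on at least 4 arrays, Kdr and Egfl7 on all 8 and Emcn and Esam on 5 each. Cldn5 was above it on 1 array, and Pecam1, Tek and Tie1 on none. At least 4 arrays showed a signal for 5 of 6 neuronal, 5 of 6 macrophage and 2 of 4 glial and neural crest markers, and none of the markers tested was called between the groups. In total RNA from a culture, fewer cells of a type and less RNA per cell cannot be told apart.

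Of the 92 genes, 28 had a probe above background on at least 4 of the 8 arrays and were tested, which is 30.4% of the members, against 53.1% of all genes on the array. For 59 genes no probe was above background on any array, and 5 more (Cdh1, Pcdh15, Pcdhb4, Pcdhb12 and Pcdhga7) had a probe above it on 1 or 2 arrays only. Brightness differs between probes for technical reasons, so the members are not ranked against one another by level. A detected probe was found for 4 of 5 catenins, 3 of 5 classical type I cadherins, 4 of 12 type II cadherins, 2 of 5 other cadherins, 1 of 5 Celsr and Fat genes and 7 of 11 non-clustered protocadherins. In the gene clusters of protocadherins the numbers were 1 of 6 alpha, 2 of 22 beta and 4 of 21 gamma genes.

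**Figure D1:**
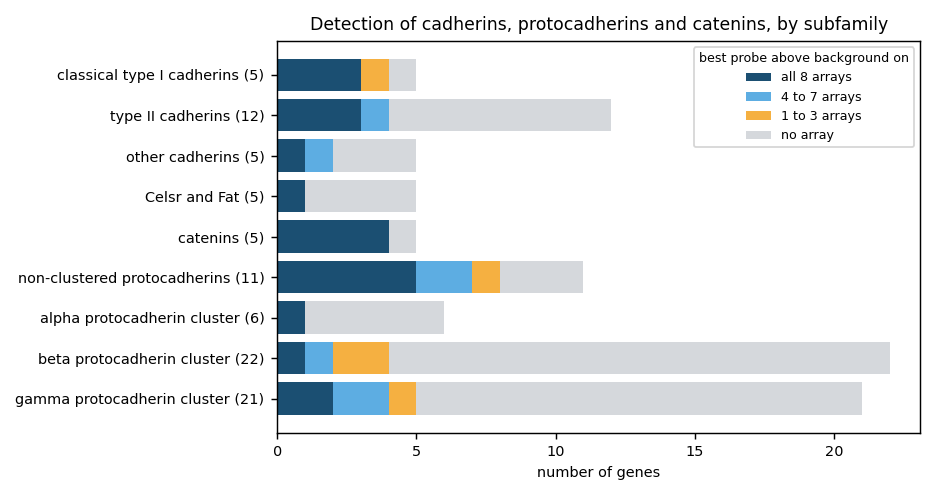
Number of genes (x axis) in each subfamily (rows, with the number of genes on the array in brackets), coloured by the number of arrays on which the gene's best probe was above background. Most catenins and non-clustered protocadherins were detected, and 18 of 22 beta cluster and 16 of 21 gamma cluster genes were above background on no array.

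No member passed the test of induced against uninduced cells. With arrays paired by replicate number, limma called 0 of the 28 tested members higher and 0 lower at an adjusted p under 0.05, and over all 9396 genes tested it called 7 higher (0.0745%) and 47 lower (0.5%). Without adjustment, the threshold of 0.05 was passed by 6 members lower in induced cells and 0 higher, and it gave 3.61% higher and 5.12% lower over all genes. These 6 were Pcdh20, Pcdhgc3, Ctnnd1, Pcdh19, Pcdh1 and Ctnna1. The mean was lower in induced cells for 23 of 28 members and higher for 5, and 50.8% of all genes had a lower mean. The median log2 difference, induced minus uninduced, was -0.077 over the members and -0.0014 over all genes. Pcdh20, Pcdhgc3, Ctnnd1, Ctnna1 and Pcdha5 (5 members) were lower in all 4 pairs, against 8.38% of all genes, and 0 were higher in all 4 pairs, against 7.57%. The values of the 2 groups overlapped for every tested member. Over all genes, groups did not overlap for 0.724% in the lower and 0.479% in the higher direction.

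**Figure D2:**
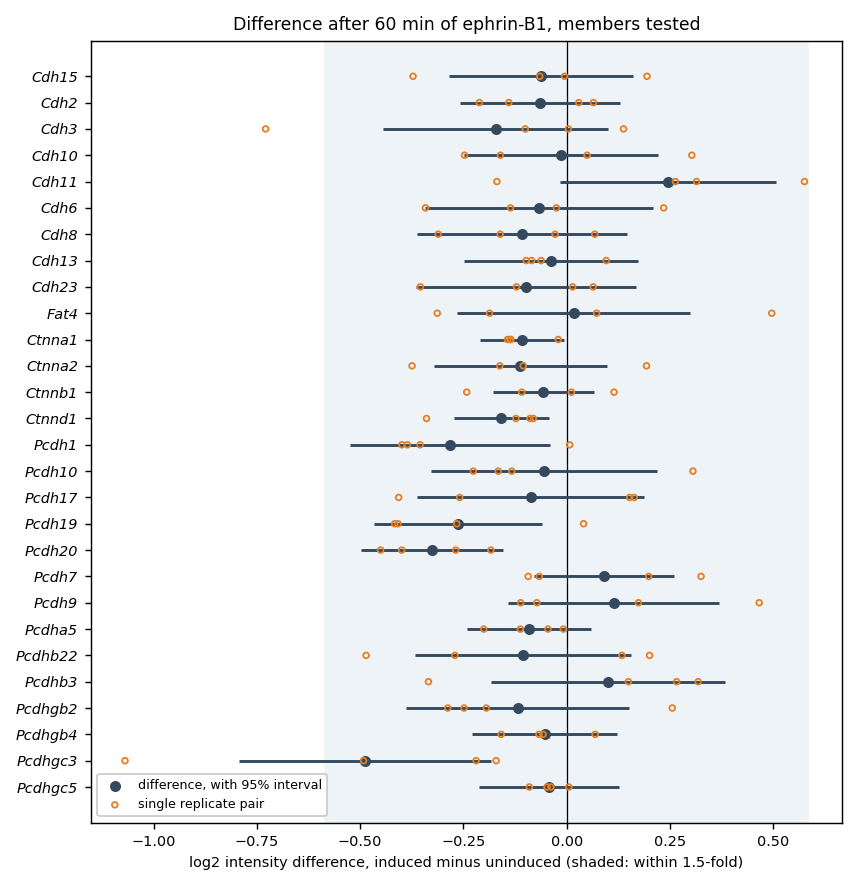
Log2 intensity difference, induced minus uninduced (x axis), for the 28 members tested (rows). Filled points with lines are the limma estimates with 95% intervals, open circles are the 4 replicate pairs, and the shaded band marks a change within 1.5-fold. All intervals but that of Pcdhgc3 lie within the band.

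The 95% intervals of 27 of 28 members lay within a 1.5-fold change in either direction, and Pcdhgc3 was the exception. The intervals are those of single genes and are not adjusted for the number of genes. They apply to the normalized log2 scale, where an added offset shrinks the differences of dim probes.

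Among the tested members, the 3 narrowest intervals belonged to the catenins Ctnna1, Ctnnd1 and Ctnnb1. The variance in limma depends in part on intensity, so a narrow interval does not by itself mean that the pairs agreed. The pairs of Ctnnb1 ran from -0.24 to 0.11. Those of Pcdhgc5, which had the larger SE (0.080), ran only from -0.090 to 0.0052. Ctnnd1, which encodes p120-catenin, the protein that holds cadherins at the membrane, had log2 intensities of 11.10, 10.73, 10.95 and 11.16 in induced cells, against 11.19, 10.85, 11.29 and 11.24 in uninduced cells. Every induced array lay below its uninduced partner, though the groups overlapped. The log2 difference was -0.16 (SE 0.055, 95% interval -0.27 to -0.043, adjusted p = 0.374), which did not pass. A second Ctnnd1 probe, also above background on all 8 arrays, gave 8.09, 7.98, 8.39 and 8.41 in induced cells, against 8.59, 8.19, 8.91 and 8.64 in uninduced cells. It was again lower in 4 of 4 pairs, with a difference of -0.36 (SE 0.076, adjusted p over all 16514 probes kept = 0.0775). This was the smallest adjusted p of any of the 42 member probes tested. The other 2 Ctnnd1 probes were above background on no array.

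Ctnna1, the alpha-catenin that couples the complex to actin in most tissues, had log2 intensities of 12.97, 12.88, 13.07 and 13.01 in induced cells, against 13.11, 12.90, 13.21 and 13.15 in uninduced cells. It was lower in 4 of 4 pairs by a small amount, with a difference of -0.11 (SE 0.048, 95% interval -0.21 to -0.0076, adjusted p = 0.532). Ctnnb1 encodes beta-catenin, which binds the cadherin tail and also acts in the nucleus in Wnt signaling. Its values were 10.70, 10.84, 11.07 and 10.94 in induced cells, against 10.94, 10.72, 11.06 and 11.05 in uninduced cells. The groups overlapped fully and the difference was -0.056 (SE 0.058, 95% interval -0.18 to 0.067, adjusted p = 0.844). Its other 2 probes, also above background on all 8 arrays, pointed the other way, with differences of 0.12 (SE 0.10) and 0.14 (SE 0.14). Ctnna2, the alpha-catenin of neurons, was above background on all 8 arrays with 1 of its 4 probes and had a difference of -0.11. Ctnna3, the alpha-catenin of heart and testis, was above background on no array.

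**Figure D3:**
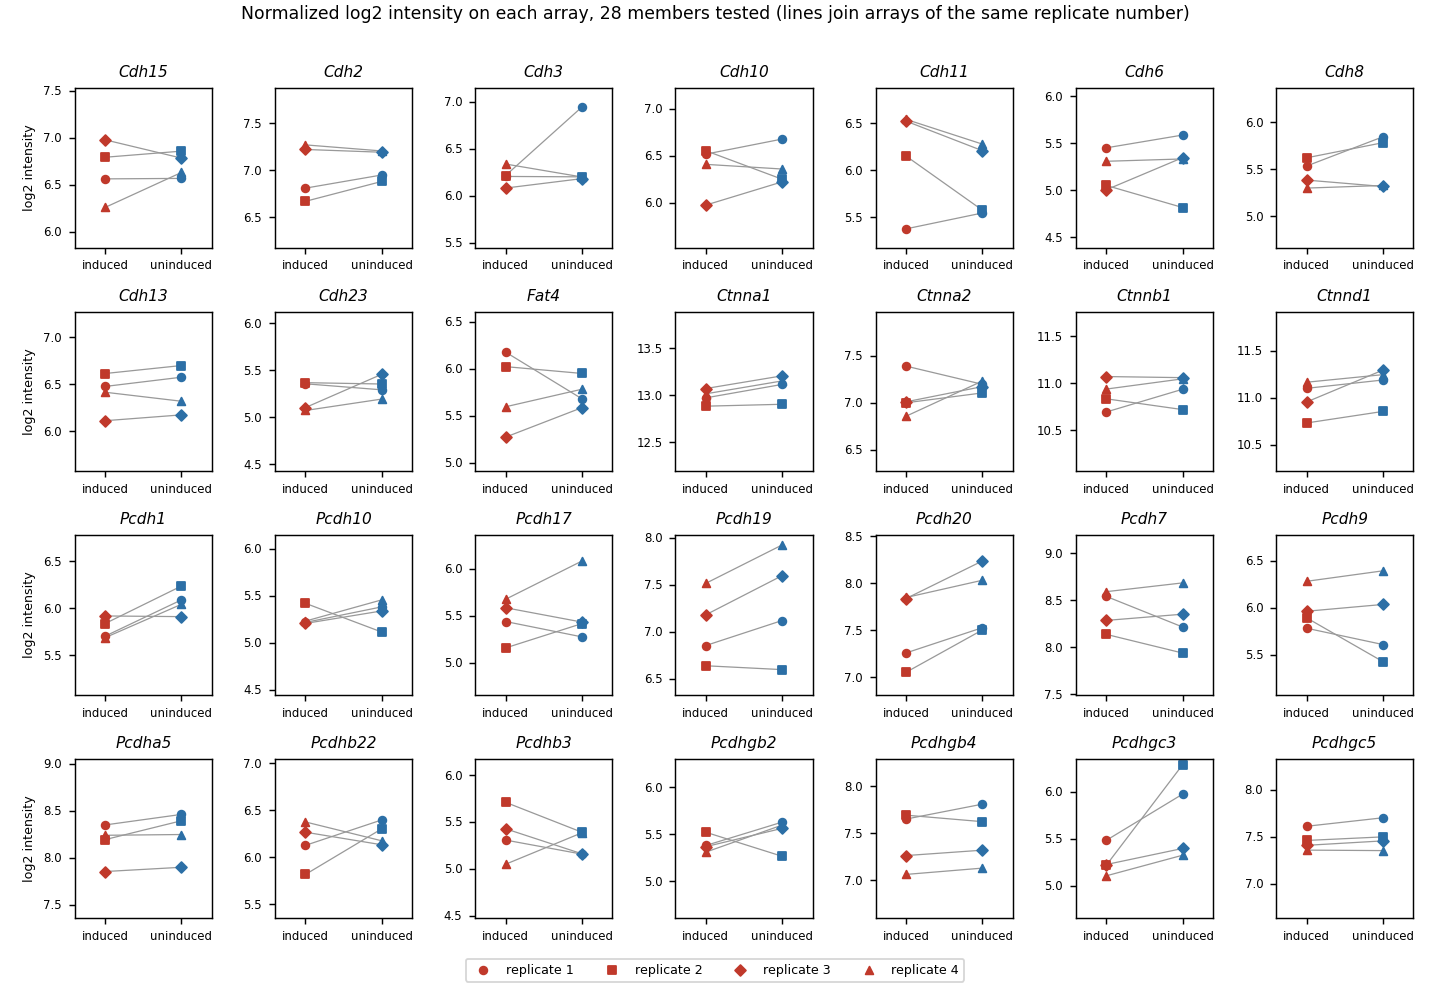
Normalized log2 intensity (y axes, each spanning the same log2 range) on every array for the 28 members tested. Red symbols on the left are induced arrays and blue symbols on the right uninduced arrays, with a symbol shape for each replicate number and lines joining arrays of the same number. Lines slope the same way in all 4 pairs for Ctnna1, Ctnnd1, Pcdh20, Pcdha5 and Pcdhgc3, and the values of the groups overlap in every panel.

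Among classical type I cadherins, Cdh2, Cdh3 and Cdh15 were detected, and Cdh1 and Cdh4 were not. Cdh2, which encodes N-cadherin, had log2 intensities of 6.81, 6.67, 7.22 and 7.27 in induced cells, against 6.95, 6.88, 7.19 and 7.21 in uninduced cells at its brightest probe. Arrays of replicates 3 and 4 were higher than those of 1 and 2 in both groups, and the difference between groups was -0.064 (SE 0.092, 95% interval -0.26 to 0.13, adjusted p = 0.895). Of the other 4 Cdh2 probes, 3 were above background on 4 arrays each and 1 on none. Those 3 pointed both ways, with differences of -0.13 (SE 0.12), 0.012 (SE 0.14) and 0.11 (SE 0.13). Cdh3 encodes P-cadherin, an adhesion protein found chiefly in epithelia. It had values of 6.21, 6.20, 6.08 and 6.34 in induced cells, against 6.94, 6.20, 6.18 and 6.20 in uninduced cells. A single uninduced array, replicate 1, stood above the other 7 arrays, and the other 3 uninduced arrays lay within the range of the induced ones. The difference was -0.17 (SE 0.13, 95% interval -0.44 to 0.10, adjusted p = 0.767), and without replicate 1 it was 0.014. A second Cdh3 probe, above background on 6 arrays, gave 0.13 (SE 0.12). Cdh15, the M-cadherin known from skeletal muscle, was above background on all 8 arrays and differed by -0.062. Of 7 skeletal muscle markers examined, Myod1, Myf5, Des and Chrna1 were above background on no array, and Actc1 and Tnnt1 were above it on all 8. Both Cdh1 probes stayed at background, apart from 1 of them on the uninduced array of replicate 2. Their log2 intensities were 4.56 to 5.0 in induced and 4.47 to 5.45 in uninduced cells. The R-cadherin gene Cdh4 was above background on no array.

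Type II cadherins were represented by Cdh11, Cdh6, Cdh8 and Cdh10. Cdh11, an adhesion protein of mesenchyme and bone-forming cells, had the largest difference in the upward direction among the members. Its log2 intensities were 5.38, 6.15, 6.52 and 6.54 in induced cells, against 5.55, 5.58, 6.21 and 6.28 in uninduced cells. The induced array was the higher in pairs 2, 3 and 4 and the lower in pair 1, and the groups overlapped. The difference was 0.25 (SE 0.12, 95% interval -0.015 to 0.51, adjusted p = 0.614). This rested on 1 of 3 Cdh11 probes, because the other 2 were above background on no array. Cdh6, known as K-cadherin, was near background, above it on 2 induced and 3 uninduced arrays. It had values of 5.45, 5.05, 5.0 and 5.31 in induced cells, against 5.59, 4.82, 5.35 and 5.33 in uninduced cells, and differed by -0.067 (SE 0.13, 95% interval -0.34 to 0.21, adjusted p = 0.93). Cdh8 and Cdh10, known mainly from the nervous system, were above background on all 8 arrays and differed by -0.11 and -0.014. Only 2 of 6 Cdh8 probes and 1 of 3 Cdh10 probes were above background on at least 4 arrays. Cdh5, the VE-cadherin of endothelium, was above background on no array, with log2 intensities of 4.59, 4.65, 4.6 and 4.59 in induced cells, against 4.95, 4.76, 4.79 and 4.50 in uninduced cells. Cdh7, Cdh9, Cdh12, Cdh18, Cdh19, Cdh20 and Cdh22 were above background on no array either.

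Of the other cadherins, Cdh13 and Cdh23 were detected. Cdh13, T-cadherin, is anchored to the membrane by a lipid and lacks the tail that binds catenins. Its log2 intensities were 6.48, 6.61, 6.11 and 6.41 in induced cells, against 6.57, 6.70, 6.17 and 6.32 in uninduced cells. The groups covered the same range, with a difference of -0.037 (SE 0.10, 95% interval -0.25 to 0.17, adjusted p = 0.95). Only 1 of 3 Cdh13 probes was above background on at least 4 arrays. Cdh23, a component of the hair cell tip link in the inner ear, was above background on 2 induced and 3 uninduced arrays and differed by -0.099. Cdh16, Cdh17 and Cdh26 were above background on no array. Fat4, a giant cadherin that binds Dachsous proteins and takes part in planar polarity, was the 1 detected gene of its group. It had values of 6.18, 6.02, 5.27 and 5.60 in induced cells, against 5.68, 5.95, 5.59 and 5.78 in uninduced cells. Pairs 1 and 2 were higher in induced cells and pairs 3 and 4 lower, which left a difference of 0.017 (SE 0.13, 95% interval -0.27 to 0.30, adjusted p = 0.99). Celsr1, Celsr2, Celsr3 and Fat3 were above background on no array, with no value of their 9 probes above 5.29 on the log2 scale.

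Non-clustered protocadherins are single genes outside the clusters and are known mostly from the nervous system. They made up 7 of the 28 members tested and 4 of the 10 members with the smallest p. Pcdh20 had the smallest p of the tested members, with log2 intensities of 7.26, 7.05, 7.84 and 7.85 in induced cells, against 7.53, 7.50, 8.24 and 8.03 in uninduced cells. Each induced array lay below its partner, and replicates 3 and 4 were higher than 1 and 2 in both groups, so that the groups overlapped. The difference was -0.33 (SE 0.081, 95% interval -0.50 to -0.15, adjusted p = 0.11), a 1.25-fold lower mean that did not pass. A second Pcdh20 probe, above background on 5 arrays, gave -0.056 (SE 0.14). Pcdh19, a delta protocadherin that binds N-cadherin, had values of 6.85, 6.64, 7.18 and 7.51 in induced cells, against 7.12, 6.59, 7.59 and 7.92 in uninduced cells. The induced array was the lower in pairs 1, 3 and 4, and pair 2 differed by 0.041. The overall difference was -0.26 (SE 0.096, 95% interval -0.47 to -0.059, adjusted p = 0.42). Only 1 of 2 Pcdh19 probes was above background on at least 4 arrays.

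Pcdh1, a protocadherin also found in airway epithelium, was dim but above background on all 8 arrays. Its values were 5.70, 5.84, 5.92 and 5.69 in induced cells, against 6.09, 6.23, 5.91 and 6.04 in uninduced cells. Pair 3 was level and the other pairs were lower in induced cells. The groups overlapped, and the difference was -0.28 (SE 0.11, 95% interval -0.53 to -0.041, adjusted p = 0.496). A second Pcdh1 probe, above background on 4 arrays, pointed the same way with -0.17 (SE 0.14). Pcdh7, a member of the delta protocadherins, had log2 intensities of 8.54, 8.14, 8.28 and 8.59 in induced cells, against 8.21, 7.94, 8.35 and 8.68 in uninduced cells. Its difference was 0.091 (SE 0.080, 95% interval -0.078 to 0.26, adjusted p = 0.809), upward in pairs 1 and 2 and downward in pairs 3 and 4. Its probes did not point the same way, because another one above background on all 8 arrays gave -0.15 (SE 0.099). Pcdh9 was above background on all 8 arrays with 1 of its 3 probes and differed by 0.11. Pcdh10 and Pcdh17, above it on 6 arrays each, differed by -0.055 and -0.087. Pcdh8, Pcdh12 and Pcdh18 were above background on no array.

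**Figure D4:**
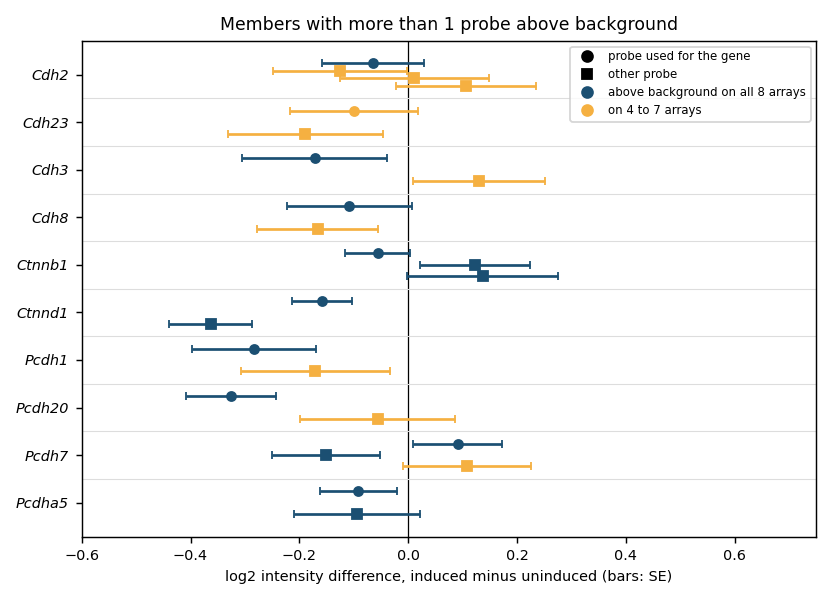
Log2 intensity difference, induced minus uninduced, with SE (x axis), for each probe above background on at least 4 arrays, in the 10 members (rows) with more than 1 such probe. Probes of Cdh2, Cdh3, Ctnnb1 and Pcdh7 lie on both sides of 0, and both probes of Ctnnd1 lie below it.

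The clustered protocadherins are tandem gene families whose alpha and gamma members each carry their own first exon and share constant exons at the 3′ end. A probe in a constant exon would read the cluster as a whole. The sources used here do not give probe positions, so a signal under 1 of these names cannot be assigned to that gene alone. Pcdha5, the 1 detected alpha cluster name, had log2 intensities of 8.35, 8.19, 7.85 and 8.24 in induced cells, against 8.46, 8.39, 7.90 and 8.25 in uninduced cells. It was lower in 4 of 4 pairs by little, with a difference of -0.092 (SE 0.071, 95% interval -0.24 to 0.059, adjusted p = 0.781). Of its 4 probes 2 were above background on all 8 arrays and 2 on none. A similar split held for Pcdhgc5 and Pcdhgb4, each with 1 probe above background on all 8 arrays and 1 on none, and these differed by -0.043 and -0.053.

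Pcdhgc3, a C-type member of the gamma cluster, showed the largest difference of any tested member. Its single probe was dim, above background on 3 induced and 4 uninduced arrays, with values of 5.48, 5.22, 5.23 and 5.11 in induced cells, against 5.98, 6.29, 5.40 and 5.33 in uninduced cells. All 4 pairs were lower in induced cells, and the uninduced arrays of replicates 1 and 2 stood above the rest. The difference was -0.49 (SE 0.14, 95% interval -0.79 to -0.18, adjusted p = 0.238), or 1.4-fold lower. Pair 2 gave -1.07, and pairs 3 and 4, both on slide 3, gave -0.17 and -0.22. On slides 1 and 2 alone, with 2 pairs, the difference was -0.78 and the adjusted p 0.0249. Pcdhgb2, near background, differed by -0.12. In the beta cluster, whose genes are single exons, Pcdhb22 was above background on all 8 arrays and differed by -0.11, and Pcdhb3, above it on 6 arrays, by 0.10.

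The members also differed between replicate numbers. An F-test of the replicate number in the same limma fit called 12 of 28 members (42.9%), against 46.6% of all genes, a share near that of the array as a whole. The mean of both arrays of a pair spanned a median of 0.46 on the log2 scale over the members and 0.35 over all genes. The absolute difference between groups had a median of 0.10 over the members and 0.062 over all genes. Pcdh19 had the widest span, with pair means of 6.98, 6.62, 7.39 and 7.72 for replicates 1 to 4, a 2.15-fold range. Cdh11 spanned 1.93-fold, with pair means of 5.46, 5.86, 6.37 and 6.41. For 7 of the 12 members (Cdh2, Cdh11, Ctnna1, Ctnnb1, Pcdh9, Pcdh19 and Pcdh20) both pairs of slide 3 lay above both others, which was so for 29.9% of all genes called by this test. For Cdh13, Pcdha5 and Pcdhgb4 they lay below, against 41% of the genes called. Slide and replicate cannot be told apart in these spans, apart from replicates 3 and 4, which shared a slide.

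**Figure D5:**
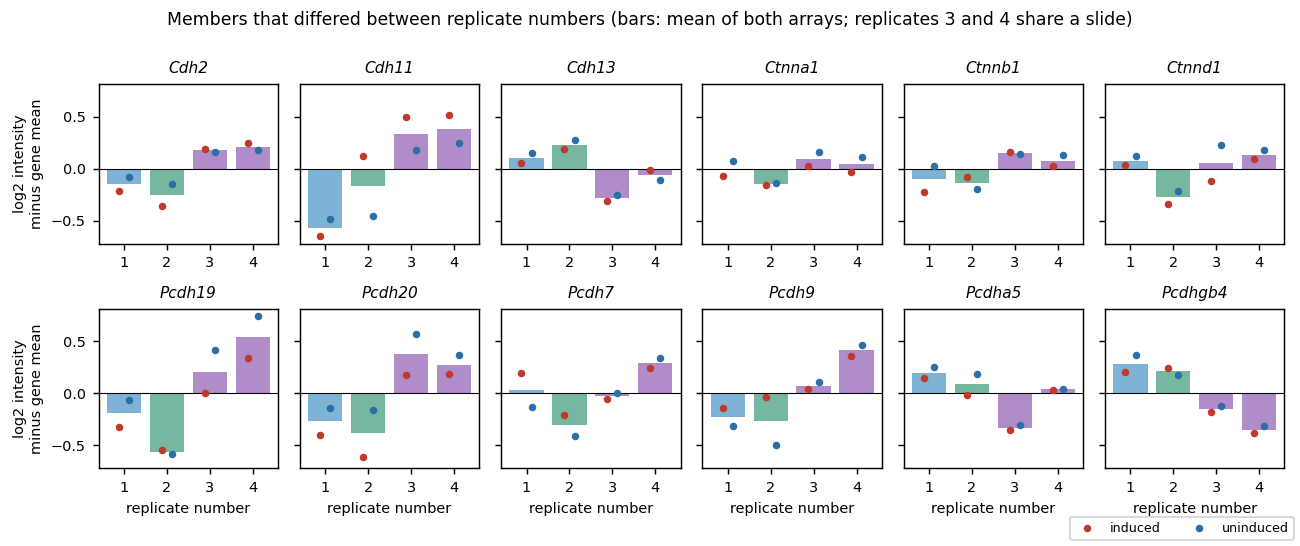
Log2 intensity minus the gene's mean over the 8 arrays (y axis) by replicate number (x axis), for the 12 members that differed between replicate numbers. Bars are the mean of both arrays of a pair, coloured by slide, and points are the induced (red) and uninduced (blue) arrays. Pcdh19 and Cdh11 have the widest spans, 2.15-fold and 1.93-fold.

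Genes that work with cadherins and catenins were examined in 7 lists. Of 114 such genes on the array 89 were tested, limma called 0 of them without a block, with the slide or with the replicate block, and without adjustment 7 of the 89 were lower and 4 higher at 0.05 with the replicate block, against 5.12% lower and 3.61% higher over all genes. Their median difference was -0.029. Among 18 adherens junction partners the smallest p belonged to Actn4, an actin crosslinker (-0.18, adjusted p = 0.298), Iqgap1, a scaffold at the junctional actin (-0.13, adjusted p = 0.461), and Nectin2, an immunoglobulin-type adhesion protein (-0.14, adjusted p = 0.474). All 3 were lower in 4 of 4 pairs, as were 8.38% of all genes, and they were picked by their p. Without adjustment 5 of the 18 passed 0.05, all of them lower. The mean was lower for 12 of the 18, against 50.8% of all genes.

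Factors of the cadherin switch are transcription factors known to act on the choice between an epithelial and a mesenchymal state. Of 14 on the array 13 were tested, among them Snai1, Snai2, Twist1, Twist2, Zeb1 and Zeb2, known to repress E-cadherin, and Ovol1, known to favour the epithelial state. The smallest p belonged to the homeobox gene Gsc (0.27, adjusted p = 0.351, higher in 4 of 4 pairs), Snai2, which encodes Slug (0.14, adjusted p = 0.542, higher in 3 of 4), and Tcf3, an E protein (-0.12, adjusted p = 0.635, lower in 3 of 4). None was called, and the list was split into 7 higher and 6 lower means.

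In the list of planar polarity and Fat-Dachsous partners, 10 genes were tested. Prickle1, a cytoplasmic polarity protein, differed by 0.20 (adjusted p = 0.234, higher in 4 of 4 pairs), Atn1, a nuclear corepressor related to a Fat partner of Drosophila, by -0.21 and the receptor gene Fzd6 by 0.21. The beta-catenin destruction complex and its nuclear partners had 12 tested genes. Pygo1, a nuclear partner of beta-catenin, differed by 0.22 (adjusted p = 0.496, higher in 4 of 4 pairs), Axin2, a scaffold and Wnt target, by -0.37 (adjusted p = 0.577, lower in 3 of 4) and the kinase gene Gsk3b by 0.084.

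Tight and gap junction genes (8 tested) were led by the connexin Gjb2 (-0.29, adjusted p = 0.496), the claudin Cldn1 (0.16) and Tjp1, the scaffold ZO-1 (-0.15). Desmosomal genes (7 tested) differed by at most 0.12 in either direction, with Dsg1a at 0.12, Pkp4 at 0.043 and Pkp1 at 0.076. The desmocollins Dsc1, Dsc2 and Dsc3 were above background on no array. For cadherin cleavage and traffic, 22 genes were tested, and Cbll1, the ligase Hakai, differed by -0.18, Mmp14, a membrane-bound protease, by 0.081 and the phosphatase gene Ptprf by -0.22.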

How the data were processed

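Total RNA of 8 samples was measured on Illumina bead arrays, 4 induced and 4 uninduced. The authors exported the values with GenomeStudio 1.6.0, per the submitters' processing notes. The deposited intensity is an average bead signal per probe on a linear scale without normalization between arrays, per the file headers. The deposited detection p-value compares a probe with the negative control beads of its array. A second deposited table of intensity values, background subtracted with a median of 4.4 on each array, was used as an alternative; its further normalization is not given in the sources used here.

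The 11 repeated probe lines were averaged. Signals were corrected and quantile normalized with neqc (offset 16) in limma 3.58.1 under R 4.3.3, which shrinks differences of dim probes. A probe entered the tests if 4 or more arrays showed it above background (detection p below 0.05), which left 16514, and the brightest of these stood for a gene (9396 genes). All 92 member symbols equal current reference symbols. Positions are not given, since no genome build is named.

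The difference is induced minus uninduced, from limma (lmFit, two-sided, eBayes with a trended variance, p adjusted by Benjamini-Hochberg across the 9396 genes). The replicate number was a block, since arrays are to be compared by replicate number. Deviations from the group means of same-numbered arrays correlated across genes at 0.625, 0.591, 0.716 and 0.620, all above the limit of 0.1, and those of other numbers at -0.54 to 0.30. Full statistics were given for members called in any fit, the 10 smallest p and a fixed set of common members, and the 3 smallest p of each other list. Members, lists and the choice of the block were made with earlier results of these data known. The limma procedure was run on simulated data with added shifts, and recovery was required only for the largest shift. That shift exceeded every difference of a tested member, so the run does not show whether changes of their size would be called. Alternatives were other blocks, scalings, background treatments, detection filters, probe rules, no variance trend, and fits without 1 replicate or within slides.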

Additional observations from a re-analysis of the deposited data

Results flagged for a closer look

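Of 56 sets of 4 arrays (28 members in each group), 2 held an array far from the others by Dixon's gap test, which chance flags in about 1 in 20 sets. Cdh3 had a log2 intensity of 6.94 in uninduced cells on replicate 1, while the other 3 uninduced arrays lay between 6.18 and 6.20. The gap was 0.975 of the range. Pcdh10 had 5.42 in induced cells on replicate 2, while the other 3 induced arrays lay between 5.20 and 5.23, a gap of 0.886 of the range.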

How the results depend on the processing

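The replicate block was the design reported, and without a replicate block, or with the slide as the block, 0 members were called as well (no replicate block: 2 of 28 at an unadjusted p under 0.05; slide block: 5). The smallest adjusted p of a member was 0.110 with the replicate block, 0.9998 with no replicate block and 0.486 with the slide block. Counts of called members stayed at 0 under every alternative except 1, which called 1 member lower: on slides 1 and 2 alone Pcdhgc3 passed (-0.78, adjusted p = 0.0249). That fit rests on 2 pairs. Over all alternatives the smallest adjusted p of a member lay between 0.0249 and 0.9998. Over all genes, 7 were called higher and 47 lower with the replicate block, 1 and 2 without it, 2 and 13 with the slide block and 1 and 12 without the variance trend. The F-test of the replicate number called 12 members and 4382 genes, and 17 members and 6222 genes with median scaling. With the slide as the block the F-test compares slides instead, and it called 7 members and 2734 genes. The median of the members was -0.028 without the detection filter, where all 92 genes entered, most of them at background. Without background correction that median was -0.043, against -0.077 in the main fit. Differences of dim members were also smaller there. Pcdhgc3 was -0.22 instead of -0.49, Pcdh1 -0.13 instead of -0.28 and Cdh11 0.13 instead of 0.25.

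Among the 15 members with full statistics, signs turned in 13 cases. No member was called with the replicate block on all 8 arrays, so there was no called difference whose sign could turn. The signs of the other tested members were not followed by gene. Over all 28 tested members, 23 had a lower mean with the replicate block, 17 on slides 1 and 2 alone and 22 on slide 3 alone. On slide 3 alone Cdh13 was 0.017, Cdh2 0.047, Cdh3 0.019, Fat4 -0.25 and Pcdh7 -0.080. Cdh6 was 0.049 on slides 1 and 2 alone. Ctnnb1 was 0.068 with the mean of its probes, which point both ways, and Fat4 -0.0090 with median scaling. When 1 replicate was left out, Cdh3 ranged from -0.28 to 0.014, Cdh6 from -0.17 to 0.025, Ctnnb1 from -0.11 to 0.0058 and Fat4 from -0.14 to 0.13. Differences of Cdh11, Ctnna1, Ctnnd1, Pcdh1, Pcdh19, Pcdh20 and Pcdha5 kept their sign under all 16 alternatives, and that of Pcdhgc3 under the 15 that tested it, since a filter on all 8 arrays leaves it out. Several of these alternatives could not turn a sign. Other blocks, other detection filters, testing every kept probe and no variance trend left the estimates of these members unchanged. So did the mean of kept probes where a member had 1 kept probe. Pcdh20 lay between -0.37 and -0.19. The cause of these shifts was not tested. With median scaling the median of all genes was 0.011. The size of change that could be detected in dim members was not measured.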
